A study of Mus musculus with 4 samples.

Results

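Sim1, Otp, Nr5a1, Nkx2-1, Lhx1, Lhx6, Foxb1, Tbx3, Six6 and Isl1 are 10 transcription factor genes that are used to place neurons in the nuclei of the hypothalamus. They were taken by name, as a fixed list, from the 32285 genes counted in single nuclei of adult male mouse hypothalamus, and all 10 were found in the counts. The study compared wild-type mice (WT) with mice heterozygous for a point mutation in the thyroid hormone receptor TRα1 that lowers its affinity for the hormone (TRα1+m), both on the C57/BL6NCr background and with no treatment given in the labels. Each of the 4 libraries held nuclei pooled from 3 mice, and each of the 2 experimental repeats gave 1 library per genotype, so that n = 2 libraries per genotype and 12 mice in all. Because the mutation is present from conception in every cell that expresses the gene, the comparison does not separate effects on development from effects in the adult. UMIs (unique molecular identifiers, each standing for 1 captured transcript) were summed per library over each sub-cluster of the neuronal cluster Neurons_1, as annotated by the authors, and over the smaller neuronal cluster Neurons_2. Levels are given as CPM, the UMIs of a gene per 1000000 UMIs of that library's nuclei in the sub-cluster, in the order WT 1, WT 2, TRα1+m 1, TRα1+m 2, where the number is the repeat.

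During development the hypothalamus is divided into regions by transcription factors, many of which stay on in the adult neurons of the nuclei they helped to form. Sim1 and Otp are needed for the neuroendocrine neurons of the paraventricular and supraoptic nuclei, Nr5a1 (SF-1) for the ventromedial nucleus, and Nkx2-1 for the ventral hypothalamus as a whole. Lhx1 and Six6 act in the suprachiasmatic nucleus, the circadian clock, and Foxb1 in the mammillary bodies. Tbx3 and Isl1 act in the arcuate nucleus, where neurons that make Pomc or Agrp control feeding, and Lhx6 marks GABA neurons of the dorsal and lateral hypothalamus and of the ventral forebrain.

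The 4 libraries held 11976 to 16435 annotated nuclei, with a median of 2904 to 4018 UMIs per nucleus, and 6824 to 10619 nuclei per library lay in Neurons_1. Between any pair of libraries 44 to 64 cell barcodes were shared. Of the 14 sub-clusters of Neurons_1, 12 were tested, those with 10 or more nuclei in each of the 4 libraries. The sub-cluster named #11 (262 nuclei) and CART Neurons_2 (28 nuclei) were not tested. Neurons_2 held 5, 1, 6 and 852 nuclei and thus came almost wholly from TRα1+m 2, so no comparison was made in it. In that library none of the members passed 7.82 CPM in Neurons_2, the value of both Otp and Nkx2-1 there, and Sim1 was at 4.98 CPM.

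The labels of the sub-clusters were checked against their defining genes. The sub-cluster labelled Orexin+ Neurons held little of Hcrt, the gene of orexin, at 101, 54.0, 88.4 and 34.7 CPM, below the 321 CPM ± 92.6 (SD, n = 4 libraries) of oligodendrocytes. It held instead Hdc, the histamine-making enzyme that marks tuberomammillary neurons, at 974, 873, 1128 and 923 CPM, against at most 12.1 CPM on average in the other tested sub-clusters. The data therefore go against that label, and it is called the Hdc-rich sub-cluster here. AVasopressin Neurons held less Avp (1117, 4653, 1240 and 5159 CPM) than Oxytocin+, AVP Neurons (5923, 36626, 6964 and 36207 CPM), and were the highest sub-cluster for Rorb (2265 CPM ± 603) and Vip (358 CPM ± 311). POMC/CART, NPY/AgRP, Somatostatin+ and MCH Neurons were highest for Pomc, Agrp, Sst and Pmch respectively. In MCH Neurons 20.7% of 2085 nuclei carried UMIs of at least 2 different vascular genes, against at most 2.64% in any other tested sub-cluster.

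On the mouse genome GRCm38, Sim1 spans chr10:50894754-50989152 on the plus strand, Otp chr13:94875602-94885130 (plus), Nr5a1 chr2:38692656-38714542 (minus), Nkx2-1 chr12:56531958-56536908 (minus) and Lhx1 chr11:84518284-84525535 (minus). Lhx6 spans chr2:36081953-36105408 (minus), Foxb1 chr9:69757710-69760940 (minus), Tbx3 chr5:119670669-119684724 (plus), Six6 chr12:72939892-72944899 (plus) and Isl1 chr13:116298281-116309689 (minus). All are protein-coding, and they run from 3231 bases (Foxb1) to 94399 bases (Sim1). Intronic reads were counted, so that a longer gene can gain more UMIs, and levels are compared below within a gene and not between genes. Antisense genes overlap Nr5a1, Nkx2-1, Foxb1 and Tbx3, a protein-coding gene on the opposite strand overlaps Six6, and a small RNA gene on the same strand lies in Lhx6. The strand setting of the counting is not given in the sources used here, so the counts of these 6 members are less certain.

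RefSeq windows of the 250 bases before a RefSeq start (GRCm38.p6) were found for 7 of the 10 members, as 9 windows. The Sim1 window (chr10:50895401-50895650) lies inside the gene span given above. So do the Lhx6 windows at chr2:36104061-36104310 and chr2:36104534-36104783. The hexamer AGGTCA, a single unit of the thyroid hormone receptor's recognition motif, was on either strand in 14.0% of all 32851 such windows. It was in 0 of the 9 member windows. Whole receptor sites, made of more than a single unit, were not searched for. The core of the cyclic AMP response element, TGACGT on either strand, was in 6.47% of all windows and in those of Lhx1 and Isl1, where it began 50 and 59 bases before the gene start. The TATA motif TATAAA on either strand was in 12.4% of all windows and, among members, in that of Sim1 only. The Lhx1 and Isl1 windows are shown as the member windows that hold this core, close to the start of both LIM homeobox genes. They lie at chr11:84525535-84525784 and chr13:116309689-116309938, both on the minus strand, with TGACGT in capitals.
Lhx1: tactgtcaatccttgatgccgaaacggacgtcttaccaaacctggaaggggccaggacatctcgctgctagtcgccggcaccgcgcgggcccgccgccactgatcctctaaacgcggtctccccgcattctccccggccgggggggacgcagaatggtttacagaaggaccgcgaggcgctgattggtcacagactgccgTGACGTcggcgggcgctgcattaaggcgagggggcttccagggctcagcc
Isl1: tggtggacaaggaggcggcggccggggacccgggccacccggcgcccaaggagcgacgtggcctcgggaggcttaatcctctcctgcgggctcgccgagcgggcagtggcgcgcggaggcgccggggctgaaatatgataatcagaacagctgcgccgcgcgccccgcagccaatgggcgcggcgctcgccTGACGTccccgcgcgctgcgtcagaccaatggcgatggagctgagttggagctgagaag
The letters describe the windows only, and binding was not measured.

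Across the 12 sub-clusters every member but Lhx6 had a sub-cluster in which all 4 libraries were above every library of oligodendrocytes. Oligodendrocytes are used as the background, since they should lack these neuronal factors while droplets also hold free RNA. Their nuclei were shallower, with a median of 1493 to 1811.5 UMIs by library against 3797 to 5227 in Neurons_1. The part of depth in this background was not tested. The sub-clusters were built by the authors from the expression of the same nuclei, so differences between sub-clusters are descriptions and were not tested.

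**Figure D1:**
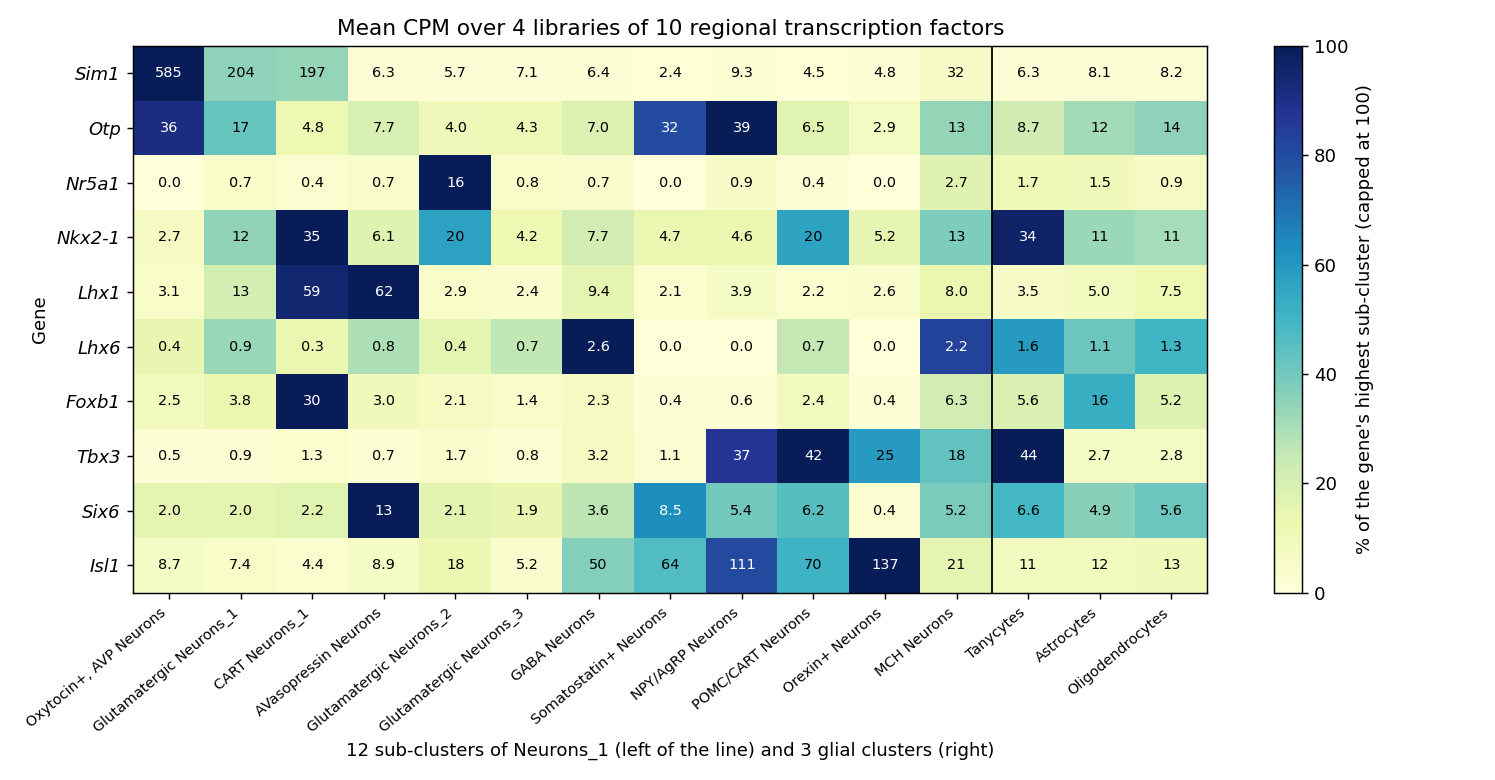
Mean CPM over 4 libraries of the 10 genes (rows) in 12 sub-clusters of Neurons_1 and 3 glial clusters (columns), with colour giving the percent of the gene's highest sub-cluster. Sim1 is highest in Oxytocin+, AVP Neurons (585 CPM), Nr5a1 stands alone in Glutamatergic Neurons_2 (15.8 CPM), and Tbx3 and Nkx2-1 are as high in tanycytes as in their highest neurons.

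Sim1, a basic helix-loop-helix factor of the paraventricular nucleus, was highest in Oxytocin+, AVP Neurons, at 616, 592, 616 and 517 CPM (339, 307, 411 and 159 UMIs). That was 9.91 times its level over Neurons_1, and its 4 libraries did not overlap those of any other sub-cluster. Glutamatergic Neurons_1 followed at 205, 201, 200 and 212 CPM, and CART Neurons_1 at 191, 164, 246 and 186 CPM, and these sub-clusters overlapped each other. Because Glutamatergic Neurons_1 is large, it held 63.5% ± 2.02 of all Sim1 UMIs of Neurons_1 against 18.3% of all UMIs. With every nucleus thinned to 1000 UMIs, 43.9% ± 1.70 of nuclei in Oxytocin+, AVP Neurons, 17.4% ± 0.381 in Glutamatergic Neurons_1 and 17.4% ± 3.87 in CART Neurons_1 had a Sim1 UMI, against 0.990% ± 0.422 of oligodendrocytes. MCH Neurons came next at 32.2 CPM ± 4.58, and the other 8 sub-clusters lay between 2.38 and 9.32 CPM on average, about the 8.19 CPM of oligodendrocytes.

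Otp, a homeobox factor of the same neuroendocrine lineages, was spread over 3 peptide sub-clusters. NPY/AgRP Neurons held 38.9, 51.9, 31.8 and 35.2 CPM, Oxytocin+, AVP Neurons 27.3, 42.4, 28.5 and 45.6 CPM, and Somatostatin+ Neurons 31.7 CPM ± 11.5, and these ranges overlapped. The background was high for this gene: oligodendrocytes lay at 13.8 CPM (10.7 to 17.7), above the 9.14 CPM of Neurons_1 as a whole. Only NPY/AgRP Neurons and Oxytocin+, AVP Neurons stood above every oligodendrocyte library. Glutamatergic Neurons_1, which held most Sim1 UMIs, had 16.6 CPM ± 3.76 of Otp, which overlaps that background.

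Nr5a1, a nuclear receptor that marks the ventromedial nucleus, was found mostly in 1 sub-cluster. Glutamatergic Neurons_2 held 13.0, 18.4, 12 and 20.0 CPM (58, 145, 52 and 112 UMIs) and 75.9% ± 4.85 of the gene's UMIs, against 13.1% of all UMIs. The next sub-cluster, MCH Neurons, held 2.69 CPM ± 1.95 and did not overlap it, and no UMI was found in the Hdc-rich sub-cluster, Oxytocin+, AVP Neurons or Somatostatin+ Neurons. Of the 4 other genes listed for the ventromedial nucleus, Fezf1 (12.3 CPM ± 3.15) and Sox14 (7.20 CPM ± 1.04) were also highest in Glutamatergic Neurons_2, while Nkx2-2 was highest in MCH Neurons (9.12 CPM ± 3.26) and Adcyap1 in CART Neurons_1 (271 CPM ± 133). Oligodendrocytes held 7.88 CPM of Fezf1 and 29.1 CPM of Nkx2-2. Hcrt, a gene of the lateral hypothalamus, was highest in Glutamatergic Neurons_2 as well, at 827 CPM ± 505.

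Nkx2-1, a homeobox factor of the ventral hypothalamus, was highest in CART Neurons_1 at 30.1, 33.7, 31.2 and 46.1 CPM. Glutamatergic Neurons_2 (20.0 CPM ± 4.38) and POMC/CART Neurons (19.9 CPM ± 2.66) followed without overlapping CART Neurons_1, but overlapped each other. Tanycytes, the cells that line the third ventricle, held 34.3 CPM ± 13.6, and oligodendrocytes 10.8 CPM.

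Foxb1, a forkhead factor of the mammillary region, was also highest in CART Neurons_1, at 22.4, 39.6, 16.0 and 40.8 CPM (38, 100, 23 and 69 UMIs), with 33.8% ± 10.99 of its UMIs there. No other sub-cluster stood above oligodendrocytes (5.21 CPM), while astrocytes held 15.6 CPM ± 5.41. CART Neurons_1 were also the highest sub-cluster for Lhx5 (14.0 CPM ± 3.80), listed with the mammillary and posterior hypothalamus, and for the glutamate transporter gene Slc17a6 (370 CPM ± 104). Other genes of that list were highest elsewhere. Foxa1 (3.64 CPM ± 0.779), Foxa2 (0.686 CPM ± 0.394) and Barhl1 (3.27 CPM ± 0.627) were highest in Glutamatergic Neurons_3, and Hdc in the Hdc-rich sub-cluster. The Cartpt level of CART Neurons_1, which the label names, was 154, 596, 137 and 227 CPM, below that of POMC/CART Neurons on average (496 CPM ± 421).

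Lhx1, a LIM homeobox factor that keeps the cells of the circadian clock coupled, was shared by AVasopressin Neurons (88.6, 41.0, 73.8 and 45.1 CPM from 114, 41, 84 and 29 UMIs) and CART Neurons_1 (87.2, 37.3, 69.4 and 42.0 CPM from 148, 94, 100 and 71 UMIs). Both sub-clusters stood apart from the third, Glutamatergic Neurons_1, at 12.9 CPM ± 3.61. In both, the libraries of repeat 1 were above those of repeat 2 in each genotype.

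Six6, a homeobox factor of the same nucleus, was highest in AVasopressin Neurons at 12.4, 13.0, 11.4 and 17.1 CPM, above Somatostatin+ Neurons at 8.51 CPM ± 1.94. Only these sub-clusters stood above oligodendrocytes (5.58 CPM). Within AVasopressin Neurons, the 209 nuclei with a Lhx1 UMI held 9.70 CPM ± 2.49 of Six6, and the 973 nuclei without one 14.2 CPM ± 2.57. The value of the nuclei with Lhx1 rests on 7 UMIs, too few to give a direction.

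Tbx3, a T-box factor that maintains the identity of arcuate peptide neurons, was steady across libraries in POMC/CART Neurons (44.3, 44.1, 37.5 and 41.8 CPM) and NPY/AgRP Neurons (40.7, 35.7, 36.4 and 33.5 CPM), which overlapped. The Hdc-rich sub-cluster followed at 14.0, 15.6, 39.5 and 30.1 CPM, from 4, 11, 17 and 13 UMIs, and MCH Neurons at 18.2 CPM ± 6.72. The level in MCH Neurons rested on the nuclei with vascular genes: without the nuclei that carried 2 or more vascular or pituitary genes it was 4.33 CPM ± 1.89, over 1652 nuclei. In MCH Neurons the 97 nuclei with a Tbx3 UMI held 203 CPM ± 63.1 of Pmch against 10421 CPM ± 9759 in those without. Tanycytes held 43.9 CPM ± 13.3 of Tbx3, as much as its highest neurons, and oligodendrocytes 2.76 CPM.

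Isl1, a LIM homeobox factor of arcuate and ventral forebrain neurons, was the member found in most sub-clusters, with 6 of 12 above oligodendrocytes (13.3 CPM). The Hdc-rich sub-cluster held 164, 146, 112 and 127 CPM and NPY/AgRP Neurons 113, 105, 136 and 88.1 CPM, and these overlapped. POMC/CART Neurons (70.0 CPM ± 10.7), Somatostatin+ Neurons (64.0 CPM ± 8.15) and GABA Neurons (43.0, 52.5, 49.6 and 54.9 CPM) followed, and the last did not overlap the others. GABA Neurons held 65.1% ± 4.37 of all Isl1 UMIs, against 40.3% of all UMIs. Sim1-rich sub-clusters were low: Oxytocin+, AVP Neurons held 8.70 CPM ± 2.86 of Isl1, Glutamatergic Neurons_1 7.42 CPM ± 2.20 and CART Neurons_1 4.44 CPM ± 1.30. Microglia and macrophages held 18.8, 55.9, 20.9 and 32.4 CPM, and 5.00% of those nuclei carried at least 2 pituitary genes and 8.60% at least 2 vascular genes. The part of these nuclei in the value was not tested.

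Lhx6, a LIM homeobox factor of GABA neurons, was near the limit of detection. Its highest sub-cluster, GABA Neurons, held 4.21, 1.50, 2.61 and 2.20 CPM (74, 27, 49 and 32 UMIs), which overlapped oligodendrocytes at 1.33 CPM (0.792 to 1.93), although 70.0% ± 5.90 of its UMIs lay there. At this depth a level above background was not detectable in any single sub-cluster. No UMI was found in NPY/AgRP, Somatostatin+ or the Hdc-rich sub-cluster.

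Genes with a pattern like a member's were named by the lowest of the 4 within-library Pearson correlations of log2(CPM + 1) over the 12 sub-clusters, among 12460 genes. These correlations are descriptions over 12 sub-clusters that share libraries. Sim1 was most like Gm32341 (r 0.83 to 0.98), Stxbp6 and Mast4, Nr5a1 most like Gm36903 (0.78 to 0.89) and Ros1, and Otp most like Zbtb20 (0.62 to 0.74), Tent5a and Lrrtm3. Lhx1 was most like Rorb (0.82 to 0.86), its neighbour Lhx1os (0.82 to 0.91) and Vipr2, the receptor for the peptide Vip. Tbx3 was most like its overlapping antisense gene Tbx3os1 (0.91 to 0.97), Abcc4 and Stat3, and Nkx2-1 most like its overlapping antisense gene Gm26973 (0.74 to 0.93), Sfta3-ps and Cdh6, so that shared reads could enter both pairs. Abcc4 was highest in MCH Neurons (72.4 CPM), whose nuclei with vascular genes were kept for these correlations. Their part in the likeness to Tbx3 was not tested. Foxb1 was most like Nefm (0.82 to 0.85), Cpne9 and Ntm, Six6 most like Smarca5 (0.81 to 0.92), Rbx1 and Atp6v1f, Isl1 most like Gpc4 (0.80 to 0.94), Syt6 and Ptpro, and Lhx6 most like Sox6 (0.60 to 0.70), Meis2 and Hdgf. The Lhx6 correlations rest on sub-cluster means of at most 2.63 CPM, none clear of the oligodendrocyte background. Between members, Tbx3 and Isl1 correlated at 0.66 to 0.81, Lhx1 and Foxb1 at 0.58 to 0.82, and Foxb1 and Isl1 at -0.79 to -0.51.

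Within single nuclei of Neurons_1 the factors were compared after each nucleus was thinned to 1000 UMIs, which left out 31 to 77 nuclei per library. Of the 163 nuclei with a Tbx3 UMI, 17 also had one of Isl1 (10.4%), against 3.05% of nuclei without Tbx3, and the ratio was between 2.63 and 5.20 in the 4 libraries. Read the other way, Isl1 nuclei held Tbx3 3.66 times as often as others. Lhx1 and Nkx2-1 shared 14 nuclei, with ratios of 2.41 and 2.40 in the 2 directions, and Sim1 and Foxb1 shared 12, with a ratio of 1.49. These 5 ordered pairs had the largest ratios above 1 in all 4 libraries. They were picked by that rule from all ordered pairs of members, most of which did not meet it. The share of all gene pairs that meet it is not given here. These ratios and those below therefore have no background beside them.

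With nuclei thinned to 2000 UMIs, a depth chosen after the data were seen, Tbx3 and Isl1 shared 33 nuclei (ratio 2.05) and Sim1 and Foxb1 41 (1.97), again above 1 in all libraries. The Lhx1 and Nkx2-1 pair fell to 1.13 and was below 1 in WT 1. At that depth, and chosen after their values were seen, 104 of 2891 Sim1 nuclei held Otp (3.60% against 1.70%, ratio 1.91 to 2.31 by library), and 44 held Isl1 (1.52% against 6.15%, ratio 0.228 to 0.281). At 1000 UMIs the Sim1 and Otp pair shared 23 nuclei with a ratio of 1.41, which was 0.418 in WT 2 and so not above 1 in every library. The Sim1 and Isl1 pair shared 11 there, with a ratio of 0.155 to 0.244 by library. Lhx1 and Foxb1 shared 17 nuclei at 2000 UMIs, with a ratio of 2.94, but 3 at 1000 UMIs, with a ratio of 1.30 and none in WT 1. Lhx1 and Six6, also chosen after their values were seen, shared 9 nuclei at 2000 UMIs, with a ratio of 1.66, above 1 in all 4 libraries. At 1000 UMIs they shared 1 nucleus, with a ratio of 0.589. Nuclei of one library are not replicates, so no test was made on these shares.

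Inside single sub-clusters some of the same pairs appeared. Over 119 pairs of members, the CPM of the second gene did not overlap between nuclei with and without a UMI of the first in 12, 8 higher and 4 lower. The same held for 3.9% of all genes so compared. In Glutamatergic Neurons_1, the 3085 nuclei with a Sim1 UMI held 20.4 CPM ± 2.39 of Otp and the 3137 without held 12.5 CPM ± 4.46, while the 465 nuclei with Otp held 301 CPM ± 40.3 of Sim1 against 196 CPM ± 4.77. There the 342 nuclei with Nkx2-1 held less Sim1 (150 CPM ± 36.0 against 208 CPM ± 8.45), and the 117 nuclei with Foxb1 held more Lhx1 (28.9 CPM ± 5.86 against 12.5 CPM ± 3.74, from 19 UMIs).

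In POMC/CART Neurons the 128 nuclei with Tbx3 held 96.9 CPM ± 5.33 of Isl1 against 64.4 CPM ± 11.8 in the other 640. In GABA Neurons the 574 nuclei with Lhx1 held 31.5 CPM ± 6.65 of Isl1 against 50.8 CPM ± 5.42, and the 168 with Lhx6 held 21.8 CPM ± 11.7 against 50.3 CPM ± 5.13. Nuclei with a UMI of the first gene were deeper, for example a median of 4994 against 4233 UMIs for Sim1 in Glutamatergic Neurons_1, and the part of depth in these values was not tested.

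**Figure D2:**
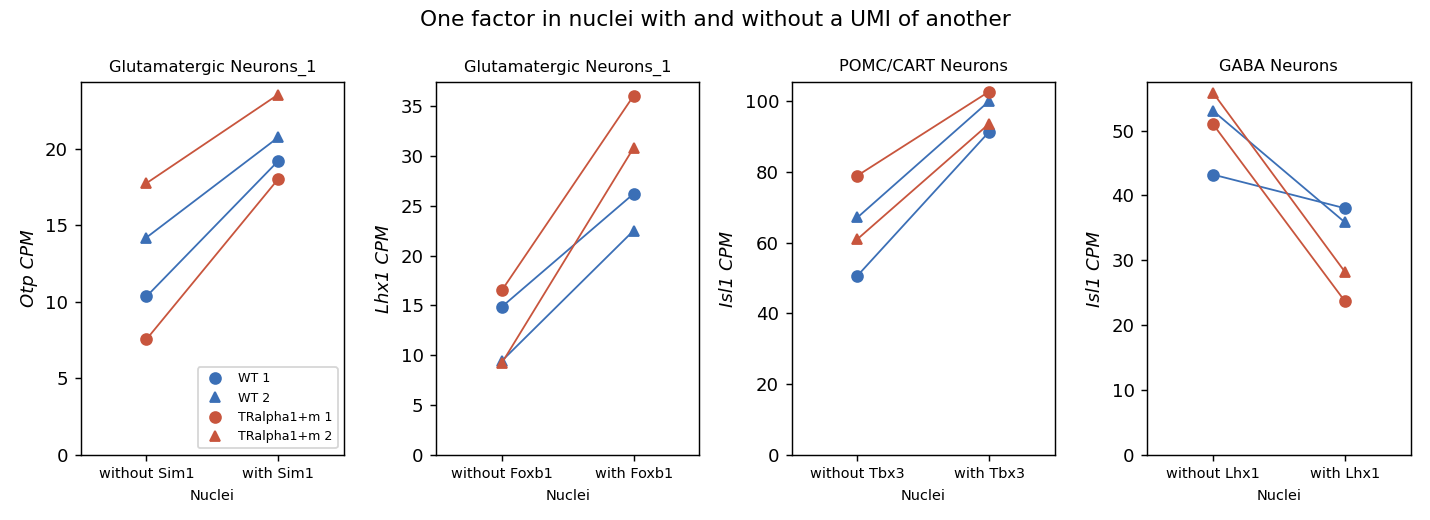
CPM of one factor in nuclei without (left) and with (right) a UMI of another, in 4 sub-cluster panels, 1 line per library, coloured by genotype with a circle for repeat 1 and a triangle for repeat 2. Otp, Lhx1 and the POMC/CART level of Isl1 are higher in nuclei with the other factor in all 4 libraries, and Isl1 in GABA Neurons is lower in nuclei with Lhx1 in all 4.

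The genotype comparison asks whether lowered TRα1 signalling went with other levels of these factors in the neurons. No member was called between TRα1+m and WT in any sub-cluster. Of the 120 combinations of member and sub-cluster, 58 passed the filter on low counts, and 0 had an adjusted p of 0.05 or less by edgeR's quasi-likelihood test with Benjamini-Hochberg adjustment over all genes of the sub-cluster. DESeq2 called 0 as well. Over all genes and the 12 sub-clusters 0.00367% were called, 5 of 136098. In the sum of Neurons_1 0 of the 10 members and 0 of 19926 genes (0%) were called, and 0 members and 193 genes had an unadjusted p under 0.05.

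The member values in Neurons_1 lay close between the genotypes. Sim1 was at 61.9 and 55.5 CPM in WT and 66.3 and 52.7 CPM in TRα1+m, a log2 fold change of -0.04 ± 0.18 (SE). Isl1 was at 26.8 and 33.0 CPM in WT and 30.5 and 33.4 CPM in TRα1+m (0.03 ± 0.17). In both genes the WT values lay between, or overlapped, the mutant ones. The other changes ran from -0.42 ± 0.44 (Foxb1) to 0.04 ± 0.26 (Tbx3), with a median over the members of -0.06 beside 0.01 over all genes. The standard errors, from a fit with no term for the repeat, were 0.17 to 0.54, and a call needs a change several times its standard error. Changes larger than these standard errors could therefore have been missed. In a sum over Neurons_1, fewer nuclei of a type and less RNA per nucleus cannot be told apart.

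One combination had an unadjusted p under 0.05. Tbx3 in the Hdc-rich sub-cluster, at 14.0 and 15.6 CPM in WT and 39.5 and 30.1 CPM in TRα1+m, had a log2 fold change of 1.16 ± 0.53 (unadjusted p = 0.043, adjusted p = 1.0 in edgeR). The groups did not overlap, but the 4 values rest on 4 to 17 UMIs. With the repeat as a block 4 combinations had an unadjusted p under 0.05 and 0 were called, against 0.42% of all genes and sub-clusters. The lowest adjusted p of those 4 was 0.33 in edgeR, for Tbx3 in MCH Neurons. Among the 86 combinations with at least 10 UMIs, the genotypes did not overlap in 17, beside 27.4% of all gene and sub-cluster combinations.

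A term for whether the genotype change differs between sub-clusters could be fitted for 9 members, all but Lhx6, and 0 were called, against 0.0709% of all genes. The lowest unadjusted p was that of Tbx3 (0.0169, adjusted p = 0.94 in edgeR). The share of Neurons_1 nuclei with a UMI, thinned to 1000 UMIs, overlapped between the genotypes for all 10 members, while it did not for 24.6% of all genes. That share was 5.10%, 4.52%, 5.45% and 4.37% for Sim1, 2.44%, 3.42%, 3.19% and 3.37% for Isl1, and 1.71%, 1.06%, 1.62% and 0.972% for Lhx1. With 2 libraries against 2 the exact two-sided permutation test cannot go below p = 0.333, and adjusted p was 1.0 for every member.

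**Figure D3:**
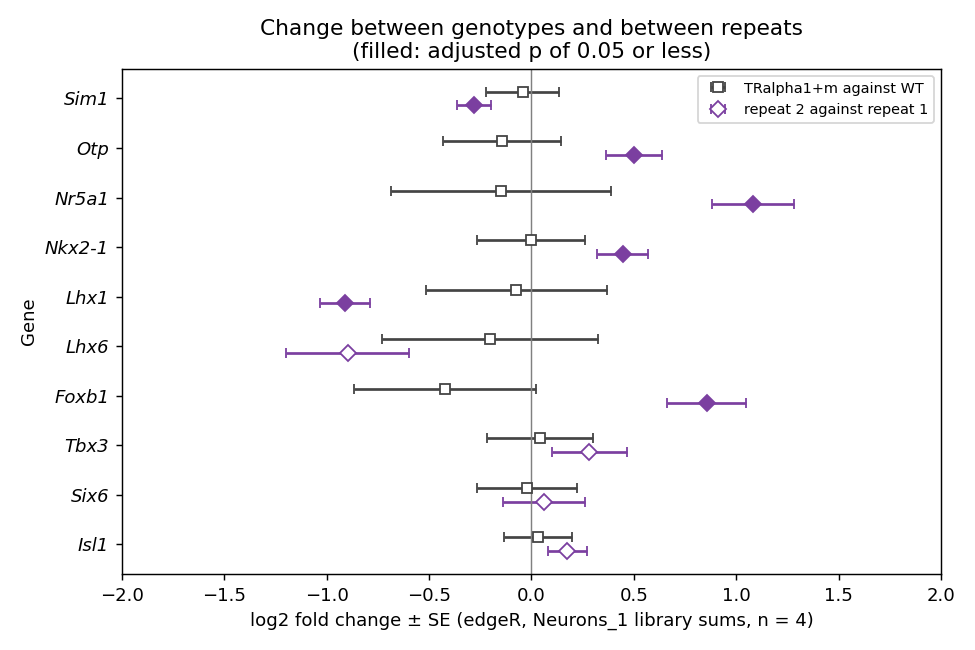
log2 fold change ± SE (edgeR, sums over Neurons_1, n = 4 libraries) of each gene for TRα1+m against WT (squares) and repeat 2 against repeat 1 (diamonds), filled where the adjusted p is 0.05 or less. No square is filled, and 6 diamonds are: Nr5a1, Foxb1, Otp and Nkx2-1 to the right of 0, Lhx1 and Sim1 to the left.

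More genes were called between the repeats than between the genotypes. The main genotype test had no term for the repeat, whereas the repeat test had one for genotype, so these fits were not alike. With the repeat as a block, 0.42% of all genes and sub-clusters were called by genotype, against 15.2% by repeat. In Neurons_1, 6 of the 10 members were called between repeat 2 and repeat 1, with genotype as a term, and so were 25.2% of all genes. Lhx1 had the lowest p: 15.1 and 14.6 CPM in the libraries of repeat 1 against 7.98 and 8.23 CPM in those of repeat 2, a log2 change of -0.91 ± 0.12 (edgeR adjusted p = 0.00137). Sim1 also fell, by 0.28 ± 0.08 on the log2 scale (edgeR adjusted p = 0.0359). Nr5a1 rose from 1.92 and 1.61 CPM to 3.82 and 3.85 CPM (1.08 ± 0.20, edgeR adjusted p = 0.00606), and Foxb1 from 2.74 and 2.55 CPM to 5.79 and 4.13 CPM (0.85 ± 0.19, edgeR adjusted p = 0.0132).

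Otp (0.50 ± 0.13) and Nkx2-1 (0.45 ± 0.12) rose with edgeR adjusted p of 0.0279 and 0.0316. In each of these 6 genes the libraries of the repeats did not overlap. Lhx6 (-0.90 ± 0.30, edgeR adjusted p = 0.0593), Isl1 (0.18 ± 0.09), Tbx3 (0.28 ± 0.18) and Six6 (0.06 ± 0.20) were not called. For the repeat test the share of all genes called is given for this main setting only, and not for the alternatives that follow. DESeq2 called 2 of the members, Lhx1 and Nr5a1. Without TRα1+m 1, 1 member was called (Lhx1), and without WT 1, 2 (Lhx1 and Nr5a1), where the genotype term had to be dropped.

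The make-up of Neurons_1 moved with the repeat as well. Glutamatergic Neurons_2, which holds most Nr5a1, made up 9.72%, 14.6%, 8.87% and 14.3% of Neurons_1 nuclei, CART Neurons_1, high in Foxb1, Lhx1 and Sim1, 4.42%, 5.47%, 3.58% and 5.08%, and AVasopressin Neurons, high in Lhx1, 4.06%, 2.90%, 3.44% and 2.56%. Glutamatergic Neurons_1, rich in Sim1, made up 18.4%, 15.2%, 19.7% and 15.2%. CART Neurons_1, with 21.7% ± 4.31 of Lhx1 UMIs against 12.8% ± 3.63 in AVasopressin Neurons, thus took a larger share in repeat 2, where Lhx1 and Sim1 were lower. In all 4 sub-clusters both libraries of a repeat lay on the same side, and the part of these shares in the sums was not tested.

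**Figure D4:**
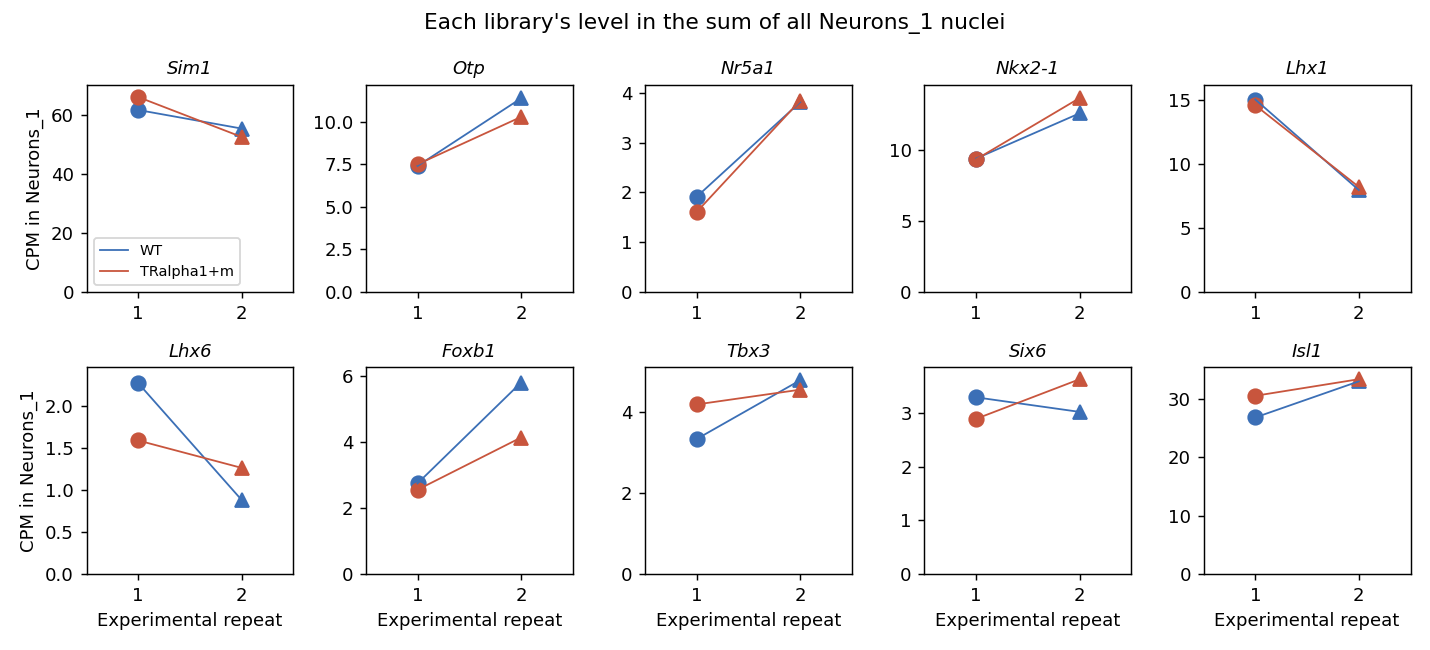
CPM of each gene in the sum of Neurons_1 nuclei (vertical axes from 0) in repeats 1 and 2, 1 line per genotype. The lines of both genotypes run the same way for Lhx1 and Sim1 (down) and for Nr5a1, Foxb1, Otp and Nkx2-1 (up), and cross or run apart for Six6.

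Within sub-clusters, where those shares do not enter, 13 of the 58 tested combinations were called between the repeats, 5 higher and 8 lower in repeat 2, and 15.2% of all genes and sub-clusters were called. Lhx1 accounted for 4 of the 8 that were lower. It fell by 1.00 ± 0.23 on the log2 scale in AVasopressin Neurons (edgeR adjusted p = 0.000403) and by 1.07 ± 0.18 in CART Neurons_1 (edgeR adjusted p = 0.000108). It also fell in GABA Neurons (-0.90 ± 0.17, 10.8 and 13.6 CPM against 6.17 and 7.21 CPM) and in Glutamatergic Neurons_1 (-0.71 ± 0.18, 15.0 and 16.8 CPM against 9.92 and 9.70 CPM). Sim1 fell in CART Neurons_1 (-0.38 ± 0.12), GABA Neurons (-0.64 ± 0.21) and Glutamatergic Neurons_3 (-1.22 ± 0.30), and Lhx6 in GABA Neurons (-0.93 ± 0.30). In GABA Neurons and Glutamatergic Neurons_3 mean Sim1 was 6.43 and 7.14 CPM, under the 8.19 CPM of oligodendrocytes. Lhx1 and Lhx6 in GABA Neurons, and Lhx1 in Glutamatergic Neurons_1, did not stand above every oligodendrocyte library either. The part of free RNA in these calls was not tested. Sim1 was not called in the sub-cluster where it was highest, in which TRα1+m 2 was the lowest library.

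Foxb1 rose in CART Neurons_1 (0.98 ± 0.23, edgeR adjusted p = 0.00421), Nr5a1 in Glutamatergic Neurons_2 (0.57 ± 0.20, edgeR adjusted p = 0.0296), and Otp in GABA Neurons (0.65 ± 0.19) and Glutamatergic Neurons_1 (0.49 ± 0.17). Nkx2-1 rose in MCH Neurons (1.47 ± 0.40), from 7.76 and 5.67 CPM to 18.4 and 21.2 CPM. Neither Otp in GABA Neurons and Glutamatergic Neurons_1 nor Nkx2-1 in MCH Neurons stood above every oligodendrocyte library. The part of free RNA in these rises was not tested. CART Neurons_1 thus held both a member that was lower in repeat 2 and one that was higher. By ranges alone, the repeats did not overlap in 48 of the 86 combinations with at least 10 UMIs, beside 50.1% of all. Which tissue was dissected in each repeat was not measured, and repeat, library preparation and mice cannot be told apart.

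**Figure D5:**
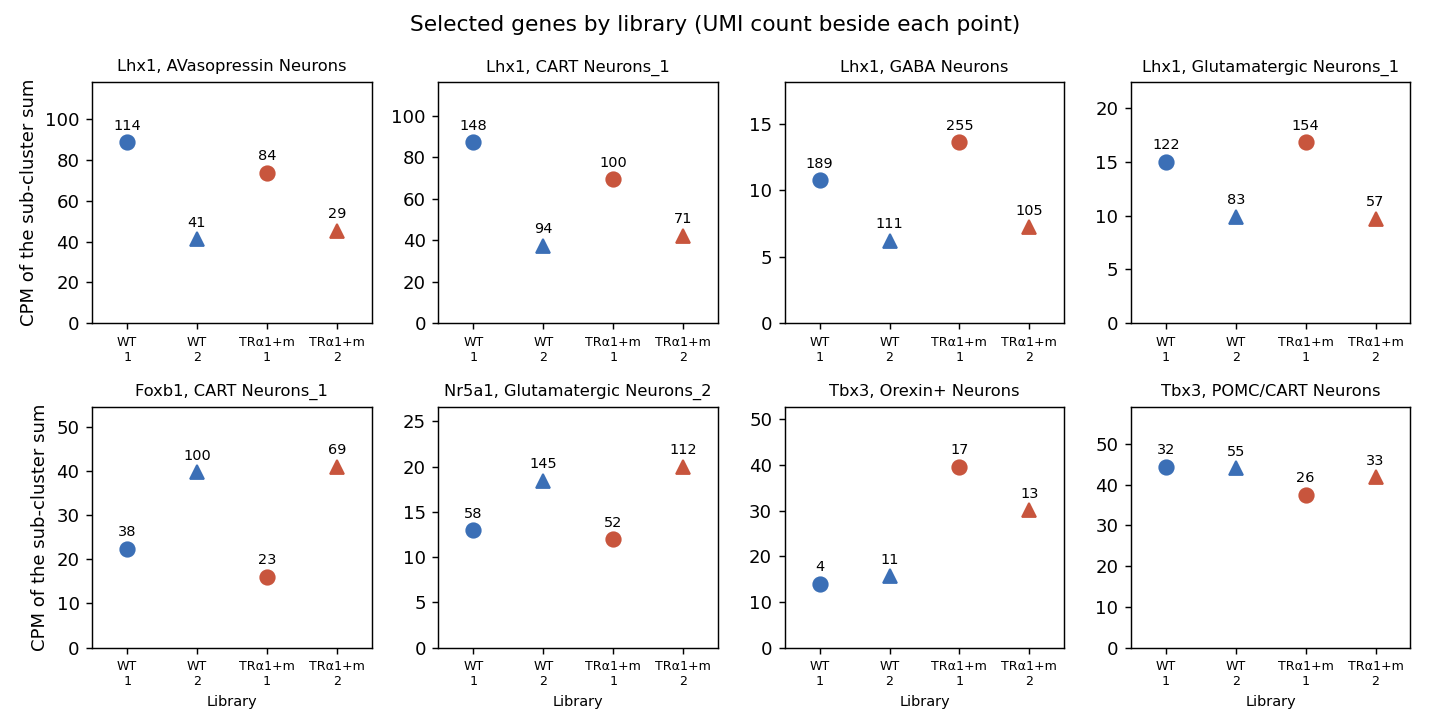
CPM by library (vertical axes from 0, UMI counts beside the points, circles for repeat 1 and triangles for repeat 2) of Lhx1 in 4 sub-clusters, Foxb1 in CART Neurons_1, Nr5a1 in Glutamatergic Neurons_2 and Tbx3 in the sub-cluster labelled Orexin+ Neurons and in POMC/CART Neurons. Lhx1 is lower and Foxb1 and Nr5a1 are higher in repeat 2 in both genotypes, and Tbx3 in the Orexin+ panel is higher in both mutant libraries, at 17 and 13 UMIs.

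Other regional genes were read from 8 lists of 59 genes, of which 56 passed the filter in Neurons_1. Between genotypes 0 of 56 were called there and 0 of 339 combinations in the sub-clusters by edgeR, where 19 had an unadjusted p under 0.05. With the repeat as a block, 17 of 339 were called, 14 of them lower in TRα1+m, beside 0.42% of all genes and sub-clusters. These were mostly peptide genes: Oxt fell by 1.11 ± 0.15 on the log2 scale in Oxytocin+, AVP Neurons (6250 and 33076 CPM in WT against 3787 and 12740 CPM in TRα1+m), and it also fell in GABA Neurons and Glutamatergic Neurons_1, where it was at 203 CPM ± 223 and 217 CPM ± 76.7. Avp fell in GABA, MCH and POMC/CART Neurons, Pomc in Glutamatergic Neurons_2, MCH Neurons and the Hdc-rich sub-cluster, Cartpt in NPY/AgRP and POMC/CART Neurons, Vip and Pmch in AVasopressin Neurons, and Hcrt in POMC/CART Neurons. Oligodendrocytes held 382 CPM ± 298 of Oxt, 398 CPM ± 217 of Avp, 693 CPM ± 235 of Pmch, 321 CPM ± 92.6 of Hcrt and 36.6 CPM of Pomc. Some falls lay below these levels in both genotypes: Avp in GABA Neurons (166 CPM in WT, 138 CPM in TRα1+m) and Hcrt in POMC/CART Neurons (152 and 92.8 CPM). So did Pmch in AVasopressin Neurons (611 and 376 CPM) and Pomc in Glutamatergic Neurons_2 (24.2 and 13.5 CPM). Oxt in GABA Neurons (282 and 124 CPM) and in Glutamatergic Neurons_1 (260 and 174 CPM) was also below on average. The same held for Avp in POMC/CART Neurons (178 and 125 CPM). Vip in AVasopressin Neurons lay above (465 and 250 CPM, beside 6.35 CPM in oligodendrocytes). By library it was at 141 and 790 CPM in WT and 121 and 380 CPM in TRα1+m, so the genotypes overlapped. WT 2 was its highest library. WT 2 was also highest for Pomc in the Hdc-rich sub-cluster (24.4 and 161 CPM against 4.65 and 13.9 CPM). The same held for Cartpt in NPY/AgRP Neurons (56.6 and 207 CPM against 40.9 and 37.0 CPM). The part of this free RNA in the calls was not tested.

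The 3 blocked calls that were higher in TRα1+m were Meis2 in AVasopressin Neurons (6.22 and 3.00 CPM against 18.4 and 18.7 CPM) and in GABA Neurons (108 and 58.0 CPM against 157 and 95.4 CPM), and Sst in the Hdc-rich sub-cluster (31.4 and 25.6 CPM against 72.1 and 104 CPM). Meis2 encodes a homeobox factor of forebrain GABA neurons. Oligodendrocytes held 46.1 CPM of Meis2 and 137 CPM of Sst on average. Meis2 in AVasopressin Neurons and Sst in the Hdc-rich sub-cluster lay below these means in all 4 libraries. Meis2 in GABA Neurons lay above. The part of free RNA in these 3 calls was not tested.

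Between repeats, 26 of the 56 were called in Neurons_1, 16 higher and 10 lower in repeat 2, beside the 25.2% of all genes. Of the 4 ventromedial genes 3 were called, and Fezf1 (0.65 ± 0.17) and Sox14 (0.75 ± 0.22) rose as Nr5a1 did. The peptide gene Adcyap1 (1.20 ± 0.07), which was highest in CART Neurons_1, rose too. Of the 6 suprachiasmatic genes, Rorb (-0.74 ± 0.08) and Lhx2 (-0.71 ± 0.20) fell as Lhx1 did, while the peptide genes Vip (0.98 ± 0.20) and Grp (1.37 ± 0.13) rose. Of the 7 paraventricular and supraoptic genes, Pou3f2 fell as Sim1 did (-0.56 ± 0.14), while the peptide genes Avp, Crh and Trh rose. Slc17a6 (0.57 ± 0.06), of the mammillary and posterior list, rose as Foxb1 did.

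Of 11 tested arcuate and tuberal genes, Pomc (1.68 ± 0.09), Npy (1.45 ± 0.09) and Hmx3 rose and Six3 (-0.49 ± 0.11) fell. Of 9 genes of the GABA lineage Slc32a1 and Gad1 rose and Meis2 (-0.91 ± 0.12) fell, and of 7 lateral genes Sst rose and Lhx8 (-2.08 ± 0.34) fell. Of the genes that mark regions outside the hypothalamus, Tbr1 (-1.22 ± 0.29), Neurod6 (-0.99 ± 0.27) and Gbx2 (-3.55 ± 0.85) fell, all from low levels. Tbr1, a factor of cortical glutamate neurons, was at 1.06 and 1.43 CPM in repeat 1 and 0.451 and 0.646 CPM in repeat 2. The part of such tissue in the repeat differences of the members was not tested.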

How the data were processed

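Single-nucleus RNA-seq (10x 3′ v3.1 chemistry) was read from the matrices deposited by the authors, which hold raw UMI counts made with Cell Ranger 5.0.1 on mm10 with introns included. The authors removed poorly sequenced nuclei and predicted doublets and annotated 56386 nuclei in Seurat, and those annotations were used with no further filter on cells or doublets. The strand setting of the counting is not given in the sources used here. Counts were summed per library and sub-cluster. Sums with at least 10 nuclei in every library were fitted in edgeR 4.0.16 (R 4.3.3) with filterByExpr, TMM scaling and robust quasi-likelihood tests, adjusted by Benjamini-Hochberg over all genes of the sub-cluster. The genotype test was also run on simulated data, which were made without a difference between the repeats. Alternatives were DESeq2 1.42.0, no filter, the repeat as a block, each library left out, and thinning of nuclei. The sums of counts carry counting error, and p-values measure the spread between pooled libraries.

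The 10 members were all named. List genes were named where they passed a test. A few genes that these rules pick are not reported here. Like genes were the 3 with the highest lowest r of 4 libraries among genes with at least 10 CPM on average in a sub-cluster, and pairs of members the 5 with the largest ratio above 1 in all libraries. The members and lists were chosen with earlier results of these data known.

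The paper's methods describe 2 experimental repeats, each with a library per genotype, which pairs the libraries by number. The difference between repeats correlated over genes between the genotypes at r = 0.667 in Neurons_1 and at 0.313 to 0.668 in the sub-clusters.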

Additional observations from a re-analysis of the deposited data

How the results depend on the processing

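No member was called between genotypes under any alternative run, and none for the interaction with sub-cluster. With the replicate block, which pairs the libraries, 17 calls were made among the other regional genes by sub-cluster against 0 without it. There were 6 with no filter on low counts and 3 to 8 with a library left out. The block changed no other call among the members. Apart from the block, the share of all genes called is not given under the alternatives here or below. Those counts therefore have no background beside them.

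Repeat calls among members in Neurons_1, 6 as reported, were 2 in DESeq2 and 1 to 5 with a library left out. By sub-cluster, an alternative set chosen after seeing the data, the 13 calls became 8 without the genotype term, 1 in DESeq2 and 4 to 11 with a library left out (4 without WT 1 and 4 without TRα1+m 1). Lhx1 in Neurons_1 stayed past the threshold in all of these, at -0.96 to -0.86 with a library left out, and Lhx6 passed it with no filter.

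Thinned to 1000 UMIs, the mean CPM in the leading sub-cluster was 45.9 for Nkx2-1, 55.8 for Tbx3 and 111 for Isl1, against 35.3, 41.9 and 137 as reported, and the other 7 members moved by less than 1 SD. Counting whole nuclei with at least 2 UMIs, 1 member, Lhx6, did not overlap between genotypes. Its shares of Neurons_1 nuclei were near the limit of detection, at 0.0523% and 0.0457% in WT and 0.0188% and 0.0293% in TRα1+m. The share of all genes that did not overlap was not computed at this setting. The cause of these differences was not tested.

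With 2 libraries per genotype and few UMIs per nucleus, small changes were not detectable at this depth for any member. This includes Lhx6, Nr5a1, Six6 and Foxb1, which had low levels. Co-detection rests on 12 to 17 nuclei at 1000 UMIs for each of the pairs with the largest ratios above 1 in all libraries.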
